A study of Arabidopsis thaliana with 12 samples.

Results

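The leaf response of the Arabidopsis thaliana line des1-1 to sodium sulfide (Na2S) was read from 6 of the 12 arrays of a series on ATH1 GeneChips, 3 labelled as des1 leaves given Na2S and 3 labelled as des1 leaves given water. The other 6 arrays, 3 of wild type leaves given water and 3 of wild type leaves given Na2S, served for the comparison of genotypes. All plants were of the Col-0 background and grew on soil for 20 days under 16 h of light and 8 h of dark, and were then irrigated for 10 days with water or with Na2S, given as 200 mM in the labels, so that leaves of all 4 groups came from plants of 30 days. The mutant carries a T-DNA insertion in DES1 and is a single line, and its replicates are called biological in the series' design text. Untreated plants had plain water, so sulfide cannot be told apart from sodium or from other properties of the solution. Neither an hour of harvest nor an array batch is in the labels. The DES1 transcript is not analysed here, so the genotype labels were not checked against it.

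DES1 is a cytosolic cysteine desulfhydrase, an enzyme that splits L-cysteine into sulfide, ammonia and pyruvate. Sulfide is the form in which plants fix sulfur into cysteine, and at low levels it is also known as a signal that modifies cysteine residues of proteins. In leaves of Arabidopsis it is known for its links to autophagy, to stomatal closure and to leaf ageing, which dismantles chloroplasts and moves their nutrients to growing organs. Growing leaves in turn express enzymes that loosen and build cell walls, tubulins, and genes of chlorophyll synthesis and of the cuticle.

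Na2S changed the des1 leaf transcriptome broadly. Values are log2 RMA expression values, in which 1 unit is a 2-fold difference, a response is the mean of the 3 treated des1 arrays minus that of the 3 untreated ones, and errors of responses are limma standard errors (SE). Of 22746 probe sets tested, 8443 passed limma at an adjusted p under 0.05, which is 37.1%. Of these 3989 rose (17.5% of those tested) and 4454 fell (19.6%). After median centring of each array 4425 rose and 4072 fell, which turns the larger side. By size, 788 rose and 934 fell at least 2-fold, 116 and 176 at least 4-fold, and 21 and 55 at least 8-fold. The 3 treated arrays lay wholly above or below the 3 untreated ones for 10513 probe sets (46.2%). The median response of all probe sets was 0.02, the 5th and 95th percentiles were -0.89 and 0.84, and the median size of a response was 0.21 beside a median SE of 0.12.

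The 6 arrays fell into their labelled groups. Correlations taken over probe sets, which are no replicates, ran within the untreated des1 group from 0.994 to 0.997, within the treated group from 0.995 to 0.997, and between them from 0.965 to 0.969. Some control probe sets differed between the 2 des1 groups as well. The 25S rRNA control stood at 10.93 to 11.97 on the untreated des1 arrays and at 12.20 to 12.53 on the treated ones, and the ubiquitin control at its 3′ end at 13.46 to 13.59 and 12.94 to 13.05. The difference between the 3′ and 5′ actin probe sets, a sign of RNA integrity, was 3.33 to 3.56 untreated and 2.72 to 3.33 treated, and for GAPDH it was 0.81 to 1.40 and 1.27 to 1.38, so these ranges met or overlapped. For ubiquitin it was 1.19 to 1.40 untreated and 1.49 to 1.56 treated, without overlap. In wild type the ubiquitin difference was 1.76 to 1.81 untreated and 1.35 to 1.61 treated. The 25S control stood there at 12.41 to 12.58 and 11.95 to 12.55, and the 3′ ubiquitin control at 12.78 to 13.06 and 12.99 to 13.10. Untreated des1 thus had the lowest 25S mean and the highest 3′ ubiquitin mean of the 4 groups. The part of these control values in the results below was not tested.

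AT5G48490, which encodes a protein of the lipid transfer family, had the largest rise. It stood at 5.61, 5.48 and 5.85 on the untreated des1 arrays and at 11.35, 11.26 and 11.18 on the treated ones. All treated arrays were far above all untreated ones, and the response was 5.62 ± 0.11, or 49.1-fold (adjusted p = 5.68e-16). AT4G29020, which encodes a glycine-rich protein, had untreated values of 5.85, 6.44 and 5.53 and treated values of 10.72, 11.05 and 10.99. It rose 31.6-fold (4.98 ± 0.16, adjusted p = 1.44e-13). AT2G10940, of the lipid transfer family as well, stood at 9.89, 9.87 and 10.10 untreated and at 12.65, 12.76 and 12.75 treated, a rise of 2.77 ± 0.11 (adjusted p = 1.58e-12).

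GDSL-type esterases and lipases, a family with members that make or modify the cutin of the cuticle, gave 5 of the 25 largest rises. AT5G45670 went from 3.48, 3.39 and 3.01 to 7.75, 7.62 and 7.71. Its untreated mean lay below the lower quartile of the arrays, where RMA values are compressed, so the rise is given as at least 15.3-fold (4.40 ± 0.12, adjusted p = 1.11e-14). AT4G28780 went from 4.25, 4.67 and 4.36 to 7.96, 7.94 and 8.17, a rise of 12.1-fold (3.60 ± 0.14). The other members of the family among the 25 were AT1G33811 at 2.78 ± 0.10, AT4G18970 at 2.76 ± 0.11 and AT5G18430, dim without treatment, at 2.60 ± 0.19.

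Proteins linked to the cell wall gave another 5 of the 25. XTH16, a xyloglucan endotransglucosylase/hydrolase that cuts and rejoins xyloglucan chains, stood at 3.84, 4.19 and 4.22 untreated and at 7.66, 7.32 and 7.60 treated. It rose 10.9-fold (3.44 ± 0.12, adjusted p = 3.10e-13). EXPB1, a beta-expansin that loosens walls without cutting them, went from 4.04, 4.29 and 4.18 to 7.36, 7.46 and 7.58 (3.30 ± 0.11, 9.83-fold). The glycosyl hydrolase GH9B8, of the cellulase family, went from 6.37, 5.70 and 5.66 to 8.38, 8.53 and 8.44, with the first untreated array higher than the others (2.54 ± 0.15). AT1G10640, of the pectin lyase-like family, rose by 2.94 ± 0.11, and AT1G23205, of the pectin methylesterase inhibitor family, by 2.79 ± 0.10.

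The other largest rises included CCS, the copper chaperone that loads copper/zinc superoxide dismutases. CCS stood at 7.56, 7.77 and 7.87 untreated and at 10.33, 10.41 and 10.17 treated (2.57 ± 0.11, 5.94-fold). EXO, a growth-promoting protein induced by brassinosteroids, went from 7.36, 7.44 and 7.61 to 10.21, 10.13 and 10.29 (2.74 ± 0.10). The aspartyl protease genes AT3G54400 (3.43 ± 0.11) and AT1G09750 (2.72 ± 0.11), the defensin-like gene AT3G05730 (3.73 ± 0.14) and AT3G16670 (3.86 ± 0.12) rose too. Across all 25, responses ran from 2.54 to 5.62, SEs from 0.092 to 0.185, and the highest adjusted p was 3.75e-09.

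**Figure D1:**
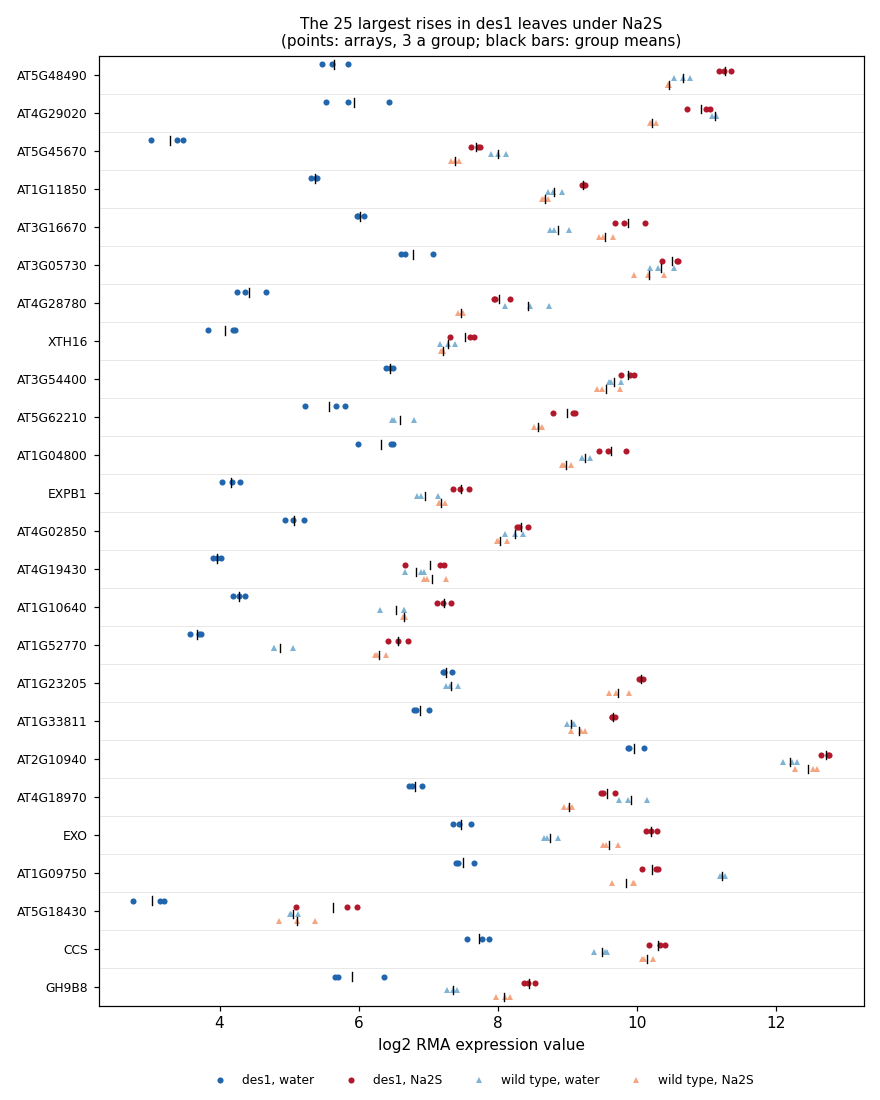
Log2 RMA expression values (horizontal axis) of the 25 genes with the largest rises in des1 leaves, one gene a row. Circles are des1 arrays and triangles wild type arrays, under water (blue shades) or Na2S (red shades), with 3 arrays a group and black bars for group means. In every row the untreated des1 arrays have the lowest mean and the treated des1 arrays lie to their right without overlap.

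Cell wall genes were also read by list. The list of wall loosening genes (expansins, xyloglucan endotransglucosylases and relatives) had 44 measured members, with XTH16, EXPB1 and GH9B8 of the 25 among them. Of the 44, 19 rose, 2 fell and 23 did not pass, against 17.5% rises and 19.6% falls over all probe sets. The median response was 0.28 against 0.02 over all probe sets. EXLA2, an expansin-like gene outside the 25, went from 5.03, 4.49 and 4.53 to 6.96, 6.94 and 7.11 (2.32 ± 0.13, adjusted p = 1.33e-10). XTH32 rose by 1.70 ± 0.12 and the cellulase-family gene GH9C2 by 1.58 ± 0.13. The list of wall polysaccharide synthesis and modification had 38 measured members, of which 14 rose, 6 fell and 18 did not pass, with a median of 0.20. Without dim probe sets 9 of the 25 members left to test rose.

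Members of that second list moved both ways. The pectin methylesterase gene ATPMEPCRB rose from 3.33, 3.31 and 3.46 to 6.22, 5.38 and 5.79 (2.43 ± 0.16, at least 4.10-fold, since the untreated level was below the lower quartile). TBL45, of a family that acetylates wall polymers, rose by 2.20 ± 0.12, whereas TBL37 and TBL38 of the same family fell by 1.30 and 1.11 on the log2 scale. CSLC04, a synthase of the xyloglucan backbone, rose by 1.75 ± 0.11, and CSLA03, of the glucomannan synthase family, by 1.58 ± 0.13. The treated and untreated des1 arrays of ATPMEPCRB did not overlap.

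Tubulins, the subunits of microtubules, rose in 6 of 7 measured genes, against 17.5% of all probe sets, with a median of 0.68. TUB1 was dim at 3.33, 3.72 and 3.82 untreated and reached 5.62, 5.37 and 5.79 (1.97 ± 0.15, at least 3.56-fold, adjusted p = 6.14e-09). TUB7 went from 7.13, 6.95 and 6.92 to 8.12, 8.25 and 8.14 (1.17 ± 0.10), and TUA6 from 9.27, 9.26 and 9.35 to 9.99, 10.22 and 10.23 (0.85 ± 0.11). TUB5, TUB6 and TUB9 rose by 0.68 ± 0.10, 0.64 ± 0.11 and 0.37 ± 0.09, and TUA1 at 0.09 did not pass. Tubulin genes are close relatives, and how far each probe set reads its own gene alone was not tested.

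Genes of dividing cells rose in 3 of 4 measured cases, against 17.5% rises over all probe sets. AUR1, a mitotic Aurora kinase, stood at 5.27, 4.88 and 4.96 untreated and at 6.19, 6.54 and 6.05 treated (1.22 ± 0.14, adjusted p = 1.25e-06). AUR2 rose by 0.83 ± 0.16 and PRL, the MCM7 subunit of the replicative helicase, by 0.92 ± 0.11, while AUR3 at 0.20 ± 0.13 did not pass. Of 6 histone genes 4 rose, among them HTB11 (0.57 ± 0.11) and HTR12, the centromeric histone H3 (0.43 ± 0.12). The linker histone HIS1-3, known to be induced by drought, fell and is described below with the stress genes.

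The 3 measured markers of the stomatal lineage and the only measured trichome gene rose, where 17.5% of all probe sets rose. Markers of root hairs did not pass. The stomatal lineage genes SPCH, MUTE and FMA, which act in turn in the making of guard cells, rose by 0.61 ± 0.16, 0.59 ± 0.11 and 0.59 ± 0.11. SPCH and MUTE were dim, and without dim probe sets 1 of these 3 genes was tested and rose. TRY, an inhibitor of trichome fate, rose by 0.64 ± 0.12, from 8.35, 8.15 and 7.95 to 8.67, 8.86 and 8.84. In wild type it rose further, by 2.70. The root hair expansins EXPA7 and EXPA18, included as markers of roots, stood between 3.63 and 4.75 on every des1 array and did not pass. EXPA18 rose without des1 water replicate 1 (adjusted p = 0.0409) and with array weights (adjusted p = 0.0215). In whole leaves a change in the number of cells of a type and a change in RNA per cell cannot be told apart.

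Chlorophyll synthesis rose in 6 of 6 measured genes, against 17.5% of all probe sets, with a median of 0.79. HEME1, a uroporphyrinogen decarboxylase of the tetrapyrrole pathway, went from 7.14, 7.51 and 7.29 to 8.91, 9.03 and 9.07 (1.69 ± 0.12, adjusted p = 3.69e-09). PORB, the light-dependent enzyme that reduces protochlorophyllide, went from 6.02, 6.18 and 6.25 to 7.67, 7.73 and 7.63 (1.53 ± 0.10, adjusted p = 1.61e-09). CHLI2, a subunit of magnesium chelatase, rose by 0.82 ± 0.11, HEMB1 by 0.76 ± 0.10, the methyltransferase CHLM by 0.59 ± 0.10 and GSA1, which makes the precursor 5-aminolevulinate, by 0.57 ± 0.12. In none of the 6 did the treated and untreated des1 arrays overlap, as in 46.2% of all probe sets. Each of the 6 kept its call under each alternative that was run.

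Photosystem genes shifted less. Of 8 nuclear genes of the photosystems and Rubisco activation 3 rose and 5 did not pass, with a median of 0.21. The share called was near the 37.1% of all probe sets. PSAN, a subunit of photosystem I, rose by 0.53 ± 0.10 from 13.28, 13.27 and 13.12 to 13.91, 13.65 and 13.69, and LHCB4.1, an antenna protein of photosystem II, by 0.45 ± 0.10. LHCB4.3 rose by 0.36 ± 0.12 (adjusted p = 0.03) but not when des1 water replicate 1, des1 Na2S replicate 1 or des1 Na2S replicate 2 was left out (adjusted p up to 0.167) or after quantile normalization again (adjusted p = 0.0804).

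Genes encoded in the plastid genome showed no common direction: of 69 measured, 9 rose, 6 fell and 54 did not pass, with a median of 0.02, equal to that of all probe sets at this precision. Array weights gave 15 rises and 11 falls, and 14 rose without des1 Na2S replicate 2. psaA, a core subunit of photosystem I, rose from 7.87, 7.77 and 7.56 to 8.52, 8.24 and 8.71 (0.76 ± 0.14). accD, a subunit of the plastid acetyl-CoA carboxylase, fell from 8.64, 8.37 and 7.57 to 7.22, 7.06 and 6.95 (-1.12 ± 0.25, adjusted p = 0.00164). The untreated accD arrays were themselves far apart.

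Anthocyanin synthesis gave 3 of the 25 largest falls, including the largest. DFR, the dihydroflavonol reductase that opens the anthocyanin branch of the flavonoid pathway, stood at 9.12, 9.14 and 9.22 untreated and at 3.51, 3.73 and 4.05 treated. The treated mean was below the lower quartile of the arrays, and the fall was at least 40.4-fold (-5.40 ± 0.12, adjusted p = 1.38e-15). UF3GT, which adds xylose to anthocyanins, went from 8.45, 8.59 and 8.91 to 4.19, 4.88 and 4.76 (-4.04 ± 0.19, 16.4-fold). The anthocyanin 5-O-glucosyltransferase gene AT4G14090 went from 9.47, 9.37 and 9.41 to 5.39, 5.83 and 5.55 (-3.83 ± 0.15, 14.2-fold), and the malonyltransferase gene AT5MAT from 5.23, 5.82 and 5.62 to 3.52, 3.84 and 3.77 (-1.85 ± 0.15).

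Not all flavonoid genes fell. Of 7 measured, 4 fell, 2 rose and 1 did not pass, against 19.6% falls and 17.5% rises over all probe sets. The genes that rose were CHIL, a chalcone isomerase-like protein at the start of the pathway (0.77 ± 0.11), and UGT78D1, a flavonol rhamnosyltransferase (0.45 ± 0.09). UGT78D2, which glucosylates both flavonols and anthocyanins, was at -0.19 and did not pass. HCT, the one measured gene of the lignin branch, rose by 0.39 ± 0.10 (adjusted p = 0.00539).

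Late embryogenesis abundant (LEA) proteins and other proteins linked to water stress gave 4 of the 25 largest falls. HIS1-3 stood at 7.15, 7.91 and 7.59 untreated and at 3.58, 3.34 and 3.43 treated, a fall of at least 13.2-fold (-4.10 ± 0.17, adjusted p = 2.01e-12). AT3G17520, of the LEA family, fell at least 13.7-fold, from 7.59, 7.81 and 7.40 to 3.38, 3.72 and 3.55 (-4.05 ± 0.14). LEA4-5 fell 10.0-fold, from 8.38, 8.01 and 7.36 to 4.59, 4.41 and 4.78 (-3.32 ± 0.22). AT3G02480, of the LEA family, fell by 3.18 on the log2 scale, with treated arrays spread from 3.84 to 4.83.

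Further genes of the osmotic response fell less far. Of 6 measured members of the abscisic acid and osmotic list 5 fell, against 19.6% of all probe sets, with a median of -1.33. HIS1-3 and LEA4-5 were among the 5. The dehydrin genes LTI30 and COR47 fell, LTI30 from 7.43, 7.12 and 7.13 to 5.57, 5.73 and 6.10 (-1.43 ± 0.15) and COR47 from 10.74, 10.52 and 10.61 to 9.25, 9.47 and 9.43 (-1.24 ± 0.12). COR15A, a chloroplast cold-protection protein, fell by 0.95 ± 0.17, and COR15B at -0.26 ± 0.13 did not pass (adjusted p = 0.121). Without des1 water replicate 1 COR15B also fell (adjusted p = 0.0157).

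Defence proteins formed another group of the largest falls. CHI (AT2G43570), a putative chitinase, stood at 10.43, 10.24 and 10.41 untreated and at 5.61, 5.94 and 5.94 treated, a 23.1-fold fall (-4.53 ± 0.11, adjusted p = 4.54e-15). OSM34, an osmotin of the thaumatin family, fell at least 10.0-fold, from 6.74, 7.18 and 7.52 to 3.29, 3.39 and 3.52 (-3.75 ± 0.17). AT4G16260, of the glucanase family, fell 10.8-fold (-3.44 ± 0.18). The glutaredoxin GRX480, which is induced by salicylate, went from 7.08, 6.45 and 6.23 to 5.39, 5.50 and 5.66 (-1.07 ± 0.18, adjusted p = 8.47e-05).

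The few measured jasmonate markers did not follow. Of 28 listed genes of jasmonate and defensins 4 were measured, of which 0 passed limma and 1 had an unadjusted p under 0.05. The share of all probe sets that passed was 37.1%. PDF1.2, a plant defensin, stood at 10.25, 9.82 and 9.94 untreated and at 9.72, 9.66 and 9.73 treated (-0.30 ± 0.13, adjusted p = 0.0911), and without des1 water replicate 2 it fell (adjusted p = 0.0497). JMT, the jasmonate methyltransferase, was at 0.05 ± 0.12 and THI2.1, a thionin, at -0.04 ± 0.17. PDF1.2b was at 0.14 ± 0.21, on a probe set marked by its suffix as open to signal from related transcripts.

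Of 27 listed senescence genes 5 were measured, of which 4 fell and 1 rose, against 19.6% falls and 17.5% rises over all probe sets. SAG29, also known as SWEET15, a sugar transporter of senescing leaves, stood at 10.67, 10.99 and 11.24 untreated and at 5.99, 6.50 and 6.26 treated, a 26.3-fold fall (-4.72 ± 0.14, adjusted p = 6.47e-14). Among the other largest falls, AMY1, an alpha-amylase, went from 7.55, 8.10 and 8.07 to 4.59, 4.68 and 4.41 (-3.35 ± 0.15), and AT4G33150, which encodes the bifunctional enzyme of lysine breakdown, from 9.01, 9.09 and 9.13 to 5.71, 5.59 and 5.61 (-3.44 ± 0.10). Beside SAG29, the falls of the senescence list were those of the factors WRKY53 (-0.67 ± 0.14) and WRKY6 (-0.57 ± 0.14) and of the lipase-like SAG101 (-0.63 ± 0.14). WRKY22 rose by 0.39 ± 0.14, a call that was lost without des1 water replicate 2 or 3 or des1 Na2S replicate 1 or 2 (adjusted p up to 0.141). Without dim probe sets 2 members of the list were left to test, and both fell.

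SWEET13, which exports sucrose from the phloem parenchyma, went from 7.91, 7.61 and 7.74 to 4.94, 5.12 and 5.01 (-2.73 ± 0.10, 6.63-fold), and SWEET11, with the same role, from 12.01, 11.95 and 11.99 to 11.26, 11.53 and 11.53 (-0.54 ± 0.10). SWEET2 (0.66 ± 0.11), SWEET1 (0.63 ± 0.15) and SWEET16 (0.62 ± 0.17) rose. Of 16 measured SWEET genes 4 rose, 3 fell and 9 did not pass, against 17.5% rises and 19.6% falls over all probe sets, so nothing about the family is read from these counts. SAG29 and SWEET13 were the only members that fell at least 2-fold.

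Of 12 listed genes of energy shortage 3 were measured and all 3 fell, against 19.6% of all probe sets. Their median response was -0.78 in des1 and -0.82 in wild type. The difference between the genotypes passed limma for 1 of the 3. IVD and MCCA, enzymes that break down branched-chain amino acids when carbon is short, fell by 0.92 and 0.78 on the log2 scale, and AKINBETA1, a subunit of the SnRK1 kinase, by 0.58. Of 3 starch genes, APL3, a subunit of the enzyme that supplies starch synthesis, fell (-1.10 ± 0.12) and so did PWD, a kinase that opens starch granules to breakdown (-0.73 ± 0.10). DPE1, which rearranges maltotriose in the plastid, was at -0.05 ± 0.15.

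Autophagy, the delivery of cell contents to the vacuole, fell in 14 of 16 measured genes, against 19.6% of all probe sets. The median was -0.72 against 0.02 over all probe sets. ATG8 proteins, which coat the growing autophagosome, gave the 3 largest falls of the list. ATG8G went from 7.63, 7.73 and 7.82 to 6.66, 6.09 and 6.45 (-1.33 ± 0.13, adjusted p = 2.04e-07), ATG8B from 7.73, 8.06 and 8.01 to 6.92, 6.35 and 6.73 (-1.27 ± 0.14), and APG8A from 8.89, 8.86 and 8.97 to 7.89, 7.57 and 7.62 (-1.21 ± 0.12). ATG8D fell by 1.08 and ATG8F by 0.88 on the log2 scale, and AT3G61960, a kinase of the ATG1 family that starts the process, by 1.11. ATG8E at -0.27 and the ATG1-type kinase gene AT1G49180 at 0.04 did not pass. The count of falls was 13 or 14 under each alternative run for lists.

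Of 22 measured genes of ubiquitin conjugation, the other main route of protein turnover, 9 fell, 1 rose and 12 did not pass. Over all probe sets 19.6% fell and 17.5% rose. PUB19, a U-box ubiquitin ligase of drought signalling and one of the 25 largest falls, went from 8.72, 8.65 and 8.62 to 5.32, 5.60 and 5.47 (-3.20 ± 0.10, 9.19-fold). PUB25 fell by 1.35, PUB24 by 1.09 and the conjugating enzyme genes UBC32 and UBC30 by 1.25 and 0.91 on the log2 scale. UBC20, an enzyme of the mitotic class, rose from 5.12, 5.04 and 4.85 to 6.29, 6.30 and 6.30 (1.29 ± 0.13). The count of rises was 3 without des1 water replicate 1, 2 without des1 Na2S replicate 2, and array weights gave 4.

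The other large falls covered mixed functions. AT5G39520, for which no role is given here, fell 40.8-fold, from 10.18, 10.57 and 10.30 to 4.87, 5.18 and 4.95 (-5.35 ± 0.14, adjusted p = 6.88e-15). CML41, a calmodulin-like calcium sensor of plasmodesmata, went from 9.98, 9.95 and 9.92 to 6.71, 6.45 and 6.46 (-3.41 ± 0.10, 10.6-fold). AT1G64360, at 10.96 to 11.04 on the untreated arrays, fell to 7.46, 7.05 and 7.11 (-3.79 ± 0.12), and AT2G41190, of an amino acid transporter family, fell 11.7-fold (-3.55 ± 0.15). Responses of the 25 falls ran from -5.40 to -3.18, their SEs from 0.100 to 0.222, and the highest adjusted p was 2.54e-09.

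**Figure D2:**
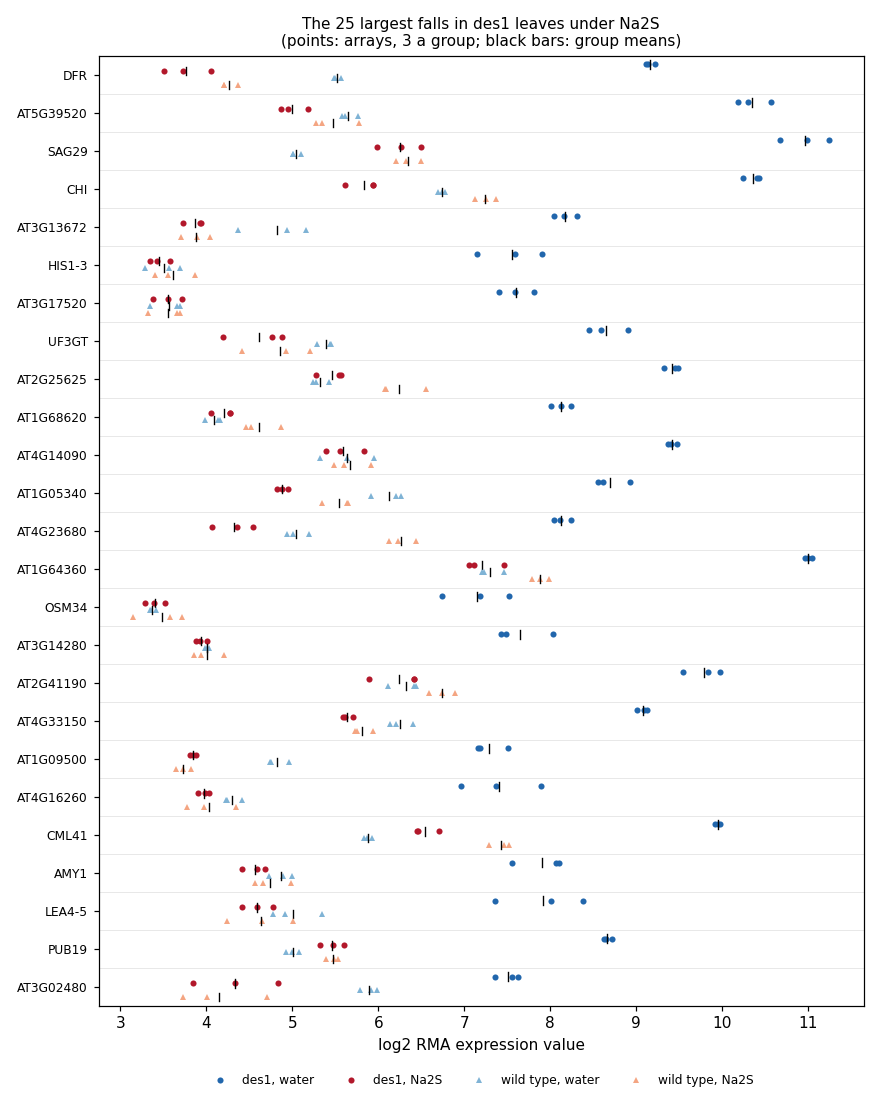
Log2 RMA expression values (horizontal axis) of the 25 genes with the largest falls in des1 leaves, one gene a row, with 3 arrays a group as points and black bars for group means. Circles are des1 and triangles wild type, under water (blue shades) or Na2S (red shades). In every row the untreated des1 arrays have the highest mean, and the treated des1 arrays lie to their left without overlap.

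Calcium sensors of the calmodulin-like family moved both ways: of 8 measured 3 rose, CML30 (1.20 ± 0.11), CML42 (0.85 ± 0.15) and CML23 (0.81 ± 0.18), 1 fell, CML41, and 4 did not pass. Among 7 WRKY factors 4 fell, with WRKY47 lowest at -1.05 ± 0.15 and ZAP1 (WRKY1) at -0.45 ± 0.11. Single measured members of further factor families fell as well, NAC014 by 0.64 and the ethylene factor EIN3 by 0.62 on the log2 scale. Of 22 measured cytochromes P450 8 fell, led by CYP71B23 (-1.71 ± 0.16) and CYP78A9 (-1.52 ± 0.11), and 14 did not pass. The list of UDP-glycosyltransferases had 51 measured members, of which 17 fell, 5 rose and 29 did not pass. UGT87A2 (-1.34 ± 0.09) and UGT84A3 (-1.31 ± 0.11) were among the falls and UGT76C2, which glucosylates cytokinins, was the largest rise at 1.42 ± 0.10. With array weights 9 of them rose. Over all probe sets 17.5% rose and 19.6% fell, and whether the counts of these families depart from those shares was not tested.

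**Figure D3:**
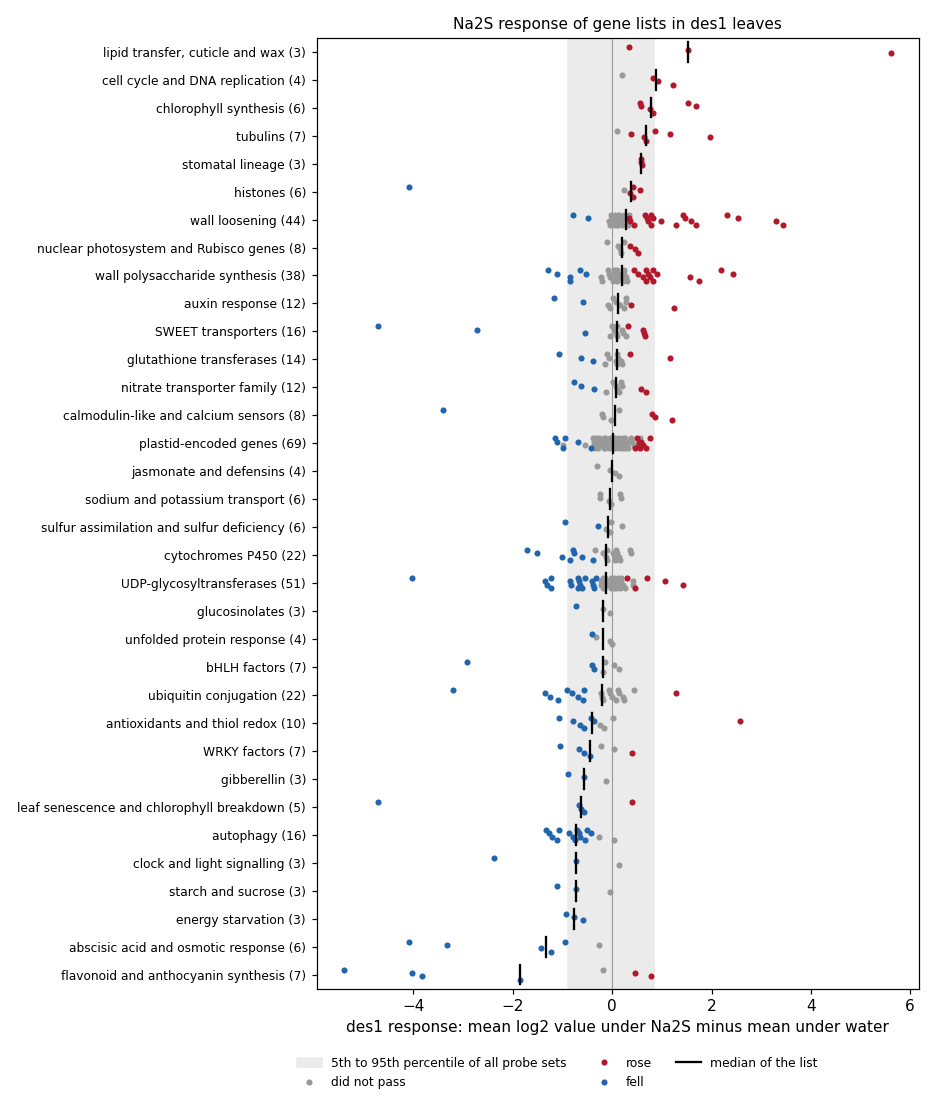
Responses of des1 leaves to Na2S (horizontal axis, log2 mean under Na2S minus mean under water) for the members of the gene lists with at least 3 measured genes, ordered by median. Red points rose, blue points fell and grey points did not pass, black bars are list medians, numbers in brackets count measured members, and the grey band spans the 5th to 95th percentile of all probe sets, -0.89 to 0.84. Tubulins and chlorophyll synthesis sit right of 0 and autophagy left of it, while plastid-encoded genes centre near 0.

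Sulfur genes, the pathway nearest to the treatment, could be read only in small part. Of 46 listed genes of sulfur assimilation and sulfur deficiency 6 were measured, of which 2 fell and 4 did not pass. Their median was -0.08. Over all probe sets 37.1% passed, so nothing about the pathway is read from this count. APS4, an ATP sulfurylase that activates sulfate, went from 8.77, 9.05 and 9.01 to 7.96, 8.08 and 7.94 (-0.95 ± 0.11, adjusted p = 1.14e-06). APS3, of the same enzyme family, was at -0.28 ± 0.09 (adjusted p = 0.0235) and lost its call without des1 water replicate 2 or des1 Na2S replicate 3 (adjusted p up to 0.092) and under both rescalings (adjusted p = 0.0578 and 0.0559). SIR, the sulfite reductase whose product is sulfide, was at 0.21 ± 0.11 (adjusted p = 0.17) and rose without des1 water replicate 1 (adjusted p = 0.0467). The deficiency marker AT1G04770 (SDI2) stood at 8.72, 8.91 and 9.00 untreated and at 8.71, 8.90 and 8.91 treated (-0.04 ± 0.10), and BGLU28, another such marker, was dim on all arrays.

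Sulfur-rich glucosinolates gave 1 fall among 3 genes, where 37.1% of all probe sets passed. BCAT4, which starts the chain elongation of methionine-derived glucosinolates, went from 12.23, 12.27 and 12.32 to 11.53, 11.54 and 11.56, a shift much larger than the spread within either group (-0.73 ± 0.10, adjusted p = 7.66e-06). UGT74B1 (-0.18 ± 0.10) and AT2G31790 (-0.04 ± 0.11), both glucosyltransferases of the pathway, did not pass.

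Among thiol redox genes CCS was the only rise. Of 10 measured antioxidant and thiol redox genes 6 fell, 1 rose and 3 did not pass, with a median of -0.40. The shares of all probe sets were 19.6% falls and 17.5% rises. ATMDAR2, a monodehydroascorbate reductase, went from 9.09, 9.11 and 9.15 to 8.35, 8.12 and 8.49 (-0.80 ± 0.11). The glutaredoxins GRXC2 and GRXC1 fell by 0.64 and 0.56 and the glutathione reductase GR1 by 0.43 on the log2 scale. Of 14 glutathione transferases 2 rose, 3 fell and 9 did not pass, a share called near the 37.1% of all probe sets. GSTF4 rose from 3.97, 4.23 and 4.50 to 5.47, 5.20 and 5.53 (1.17 ± 0.13), and GSTU16 fell from 9.70, 9.86 and 9.69 to 8.76, 8.55 and 8.74 (-1.07 ± 0.11).

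BHLH101 and PYE, regulators of iron deficiency, fell. BHLH101, a factor that switches on iron uptake, went from 8.28, 8.05 and 8.13 to 5.19, 5.07 and 5.46, a 7.53-fold fall (-2.91 ± 0.12, adjusted p = 3.62e-12). PYE, a factor of the iron response in internal tissues, went from 8.65, 8.60 and 8.42 to 7.24, 7.18 and 7.16 (-1.36 ± 0.12). Among the related bHLH factors ILR3 fell by 0.37 and bHLH121 by 0.41 on the log2 scale, whereas bHLH104 (-0.19 ± 0.12), bHLH115 (0.14 ± 0.11) and bHLH34 (-0.14 ± 0.11) did not pass. The call of bHLH121 (adjusted p = 0.0172) was lost without des1 water replicate 1 or des1 Na2S replicate 1 (adjusted p up to 0.0746).

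Cation exchangers of the CHX family were the measured members of the sodium and potassium list. With limma 0 of 6 passed, where 37.1% of all probe sets passed, and 0 had an unadjusted p under 0.05. Their responses ran from -0.25 to 0.19, and CHX15, CHX21 and chx28 stayed below 4 on every des1 array. CHX20, a guard cell exchanger, stood at 8.14, 7.75 and 7.94 untreated and at 7.56, 7.79 and 7.76 treated (-0.24 ± 0.12, adjusted p = 0.125), and fell without des1 water replicate 2 (adjusted p = 0.048). CHX19, at -0.25 ± 0.12, fell after quantile normalization again (adjusted p = 0.0479) and with array weights.

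Hormone, clock and chaperone genes gave single changes. The light- and clock-linked gene CCL went from 10.58, 10.62 and 10.55 to 8.17, 8.29 and 8.13 (-2.39 ± 0.09, 5.23-fold), and GI, a clock protein with an evening peak, fell by 0.73 ± 0.12, whereas HYH was at 0.14 ± 0.13. The gibberellin receptors GID1B and GID1C fell by 0.88 and 0.57 on the log2 scale and GID1A at -0.13 did not pass. Among 12 auxin genes the amido synthetase GH3.9 rose (1.25 ± 0.20) and its relatives GH3.3 (-1.17 ± 0.19) and WES1 (-0.59 ± 0.14) fell. Of 2 heat shock genes 0 passed limma and 0 had an unadjusted p under 0.05, Hsp70-2 being at -0.12 ± 0.11. Of 4 genes of the unfolded protein response BZIP60 was at -0.41 ± 0.13 (adjusted p = 0.0162), a call lost without des1 water replicate 2 or 3 or des1 Na2S replicate 2 (adjusted p up to 0.087).

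Of 12 nitrate transporter relatives 2 rose, 3 fell and 7 did not pass, against 17.5% rises and 19.6% falls over all probe sets, from which nothing about the family is read. GTR2, which carries glucosinolates, fell by 0.77 ± 0.11, from 8.64, 8.38 and 8.58 to 7.80, 7.88 and 7.60, and AT1G68570 by 0.64 ± 0.12. AT1G59740 rose by 0.69 ± 0.14. Of the 3 cuticle and lipid transfer genes on that list, AT5G48490 and AT5G61590, the wax-repressing factor DEWAX, rose, the latter from 7.73, 7.92 and 7.61 to 9.48, 9.14 and 9.23 (1.53 ± 0.15). AT4G13840, an acyltransferase of wax chain elongation, rose by 0.35 ± 0.12, a call lost without des1 water replicate 1 or des1 Na2S replicate 1 or 3 (adjusted p up to 0.157).

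The response of des1 was then set against that of wild type by the interaction, the des1 response minus the wild type response. It passed limma for 8573 of 22746 probe sets (37.7%), with 4232 higher (18.6%) and 4341 lower (19.1%) in des1. The 25 largest rises and 25 largest falls were chosen by the des1 response, which is 1 term of this difference, so that they passed it too is no support for a difference. In all 50 genes untreated des1 was the extreme of the 4 group means, which the same choice favours. The wild type response of these genes was smaller than 1 log2 unit for 21 of the rises and 19 of the falls. Treated des1 lay within 1 log2 unit of treated wild type for 25 rises and 23 falls, and within 1 unit of untreated wild type for 18 and 21. The same counts over all probe sets were not made. The median size of a wild type response over all probe sets was 0.19. Arrays of treated des1 and treated wild type correlated from 0.988 to 0.996. These counts are therefore not read as particular to these genes.

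The lipid transfer gene AT5G48490 serves as an example. Untreated wild type stood at 10.67, 10.54 and 10.77 and treated wild type at 10.45, 10.45 and 10.47, both near treated des1, so that the untreated des1 arrays alone were low (interaction 5.82 ± 0.15, adjusted p = 1.78e-14). For HIS1-3 wild type stood at 3.28 to 3.69 untreated and at 3.40 to 3.87 treated, close to the treated des1 arrays (interaction -4.20 ± 0.24). AT1G23205 was different, since it rose in both genotypes, in wild type from 7.31, 7.43 and 7.25 to 9.60, 9.89 and 9.70 (interaction 0.39 ± 0.14, adjusted p = 0.0389). AT1G52770 and AT5G62210 rose in wild type as well, by 1.43 ± 0.11 and 1.99 ± 0.14, and BHLH101 fell in wild type as well (-2.08 ± 0.12 beside -2.91 in des1, interaction -0.83 ± 0.17).

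Other genes moved in opposite directions. PORB rose in des1 but stood at 12.44, 12.71 and 12.50 in untreated wild type and at 7.61, 7.64 and 7.55 in treated wild type, so the treated genotypes met near one level (interaction 6.48 ± 0.14, adjusted p = 6.60e-15). BZIP61 rose in des1 from 4.17, 4.08 and 4.30 to 6.78, 6.22 and 6.90 and fell in wild type from 8.52, 8.65 and 8.34 to 6.12, 6.14 and 5.61 (interaction 4.997 ± 0.23). CML41 fell in des1 and rose in wild type from 5.83, 5.93 and 5.87 to 7.46, 7.52 and 7.29 (interaction -4.96 ± 0.14). AT3G28270 fell from 12.10, 12.03 and 11.98 to 10.82, 10.75 and 10.89 in des1 and rose by 3.32 ± 0.10 in wild type (interaction -4.53 ± 0.14).

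A further set barely moved in des1 while wild type changed strongly. AT1G56300, which encodes a J-domain protein, was dim in des1 at 3.51, 3.65 and 3.55 untreated and at 3.46, 3.40 and 3.42 treated, and fell in wild type by 5.99 on the log2 scale (interaction 5.85 ± 0.14). AT4G30660 was at 5.89, 6.01 and 6.06 and at 5.84, 5.76 and 5.74 in des1, and fell in wild type by 4.74 (interaction 4.53 ± 0.19). AT2G27420, a papain-type cysteine protease, stood at 10.35, 10.12 and 10.40 untreated and at 9.77, 10.02 and 9.94 treated in des1 (-0.38 ± 0.12, adjusted p = 0.0172), and rose in wild type by 5.95 ± 0.12 (interaction -6.33 ± 0.17). Its des1 call was lost without des1 water replicate 1 or 3 or des1 Na2S replicate 1 (adjusted p up to 0.0844).

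**Figure D4:**
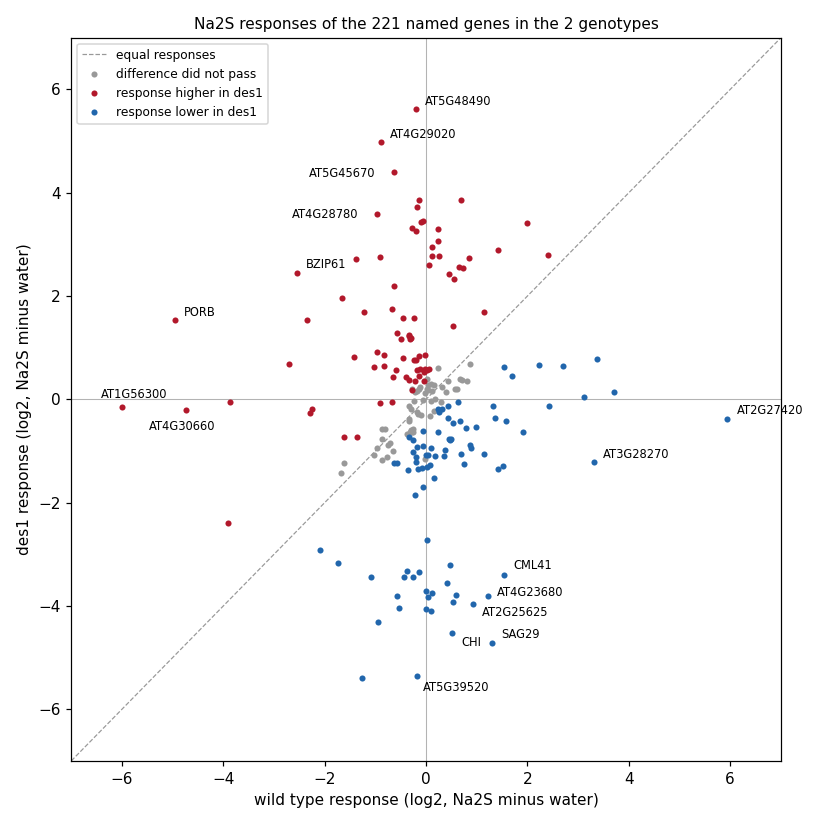
Response to Na2S in des1 (vertical axis) against that in wild type (horizontal axis), both in log2 units, for the 221 genes named by the rule or shown as list members. Red and blue points have a higher or lower response in des1 by limma's interaction test, grey points did not pass, and the dashed line marks equal responses. The labelled genes have the largest differences, from PORB at 6.48 to AT2G27420 at -6.33, and many of the largest des1 responses lie near a wild type response of 0.

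By list, the interaction was higher in des1 for 6 of 6 chlorophyll genes, where the median wild type response was -0.91, and for 6 of 7 tubulins, where it was -0.83. HEME1 fell in wild type from 10.11, 9.75 and 10.13 to 8.74, 8.84 and 8.74, and TUB5 from 10.68, 10.78 and 10.72 to 8.03, 8.09 and 7.92, each toward the level of treated des1. The interaction was lower in des1 for 7 of 7 flavonoid genes, and DFR stood at 5.50, 5.57 and 5.49 in untreated wild type, far below untreated des1. Autophagy genes differed in 7 of 16 cases, 6 lower and 1 higher in des1. ATG8G in wild type was at 6.87, 6.76 and 6.96 untreated and at 6.90, 6.80 and 6.64 treated (interaction -1.24 ± 0.18), whereas ATG8D fell in both genotypes (interaction -0.05 ± 0.22, adjusted p = 0.9). Wall loosening genes differed in 20 of 44 cases, 18 of them higher in des1. The shares of all probe sets were 37.7% differing, 18.6% higher and 19.1% lower in des1. Whether the counts of these lists depart from those shares was not tested.

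**Figure D5:**
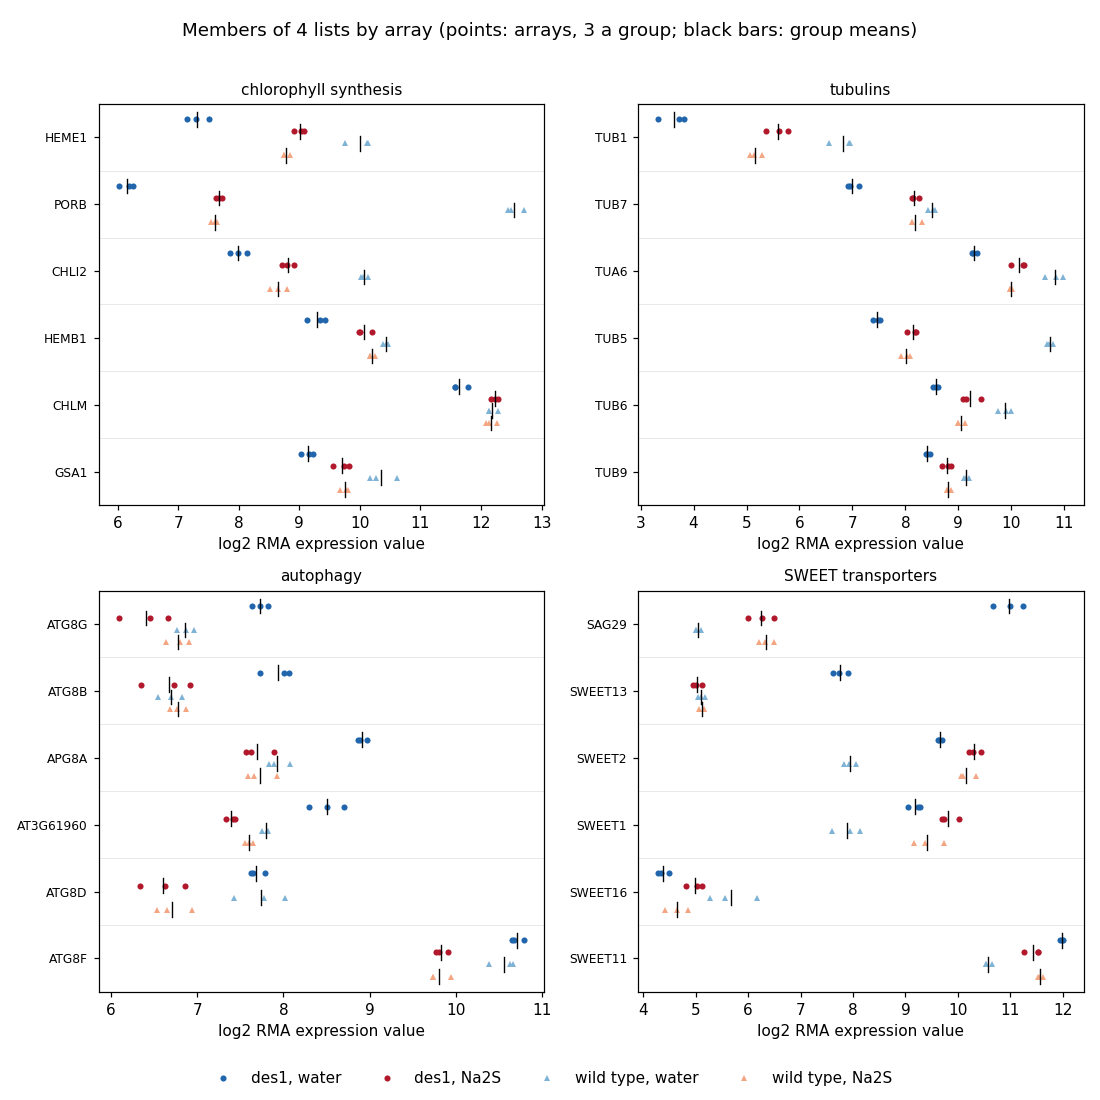
Log2 RMA expression values by array for the 6 members with the largest des1 responses of 4 lists: chlorophyll synthesis, tubulins, autophagy and SWEET transporters. Circles are des1 and triangles wild type, under water (blue shades) or Na2S (red shades), with black bars for group means of 3 arrays. Treated des1 and treated wild type sit close together in most rows, as for PORB with means of 7.68 and 7.60. The untreated groups lie apart for PORB, the gene with the largest positive interaction, at 6.15 and 12.55. For ATG8D they lie close together, at 7.69 and 7.74.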

How the data were processed

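Leaf RNA was hybridised to ATH1 arrays, 3 in each of 4 groups taken from the sample titles. The deposited table holds log2 values that the authors made by RMA, run in affy per the submitters' processing notes. Versions and joint processing of all arrays are not given in the sources used here. RMA equalises array distributions, which removes shifts shared by most transcripts, and compresses dim ones. Of 22810 probe sets 64 controls were dropped and 22746 tested, and 13513 of these had 1 gene listed, 503 several and 8730 none listed here. Of the first, 13436 were matched to a locus (assembly TAIR10.1, names only).

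A model of 4 group means was fitted to all 12 arrays (limma 3.58.1, lmFit and eBayes, R 4.3.3), with Benjamini-Hochberg adjustment over the 22746 probe sets and a threshold of 0.05. All adjusted p-values come from it. Arrays give no read depth, and their number limits the precision. On simulated data for the des1 response, 86.6% of probe sets changed 1.5-fold and 100% of those changed 2-fold were recovered, and for the difference of responses 29.9% and 94.0%. False calls numbered 20 and 6. The simulation changed 67, 67 and 66 probe sets by 1.5-, 2- and 4-fold, far fewer than passed here. Its shares need not carry over to these data.

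Named genes were the 25 largest rises and 25 largest falls among 1-gene probe sets whose des1 response passed without overlap of the des1 groups, and the 8 largest differences of response each way among those whose difference passed with the same lack of overlap. Up to 6 members of each list were also named by size of response, whether or not they passed. Alternatives were quantile normalization again, median centring, leaving out dim probe sets, a trended robust variance, array weights, a replicate block, 1-gene probe sets only, the des1 arrays alone, and each array left out in turn. For the des1 response only des1 arrays were left out. Lists were not read with 1-gene probe sets only, and single named genes neither with these nor with the des1 arrays alone. A gene of a list with several probe sets was read from the one with the highest mean. Listed genes without a 1-gene probe set matched to a locus were not measured. Many lists are therefore read in part, as with 16 of 47 autophagy genes and 6 of 23 chlorophyll synthesis genes. "At least" folds replace a mean below the lower quartile by that quartile. Members and lists were chosen with earlier results of these data known, lists were completed or trimmed by name once the annotation was read, and role classes were set after the values were seen. Sequences are not shown, since none were used here.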

Additional observations from a re-analysis of the deposited data

Results flagged for a closer look

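The results here were picked out because the response to Na2S differed between the genotypes by the interaction test of limma. Over all probe sets 8573 differed. The 25 largest rises and 25 largest falls in des1 also passed, but they were chosen by the des1 response, which is 1 term of this difference, so that count supports nothing. The largest positive differences, des1 response minus wild type response in log2 units, were those of PORB (6.48), AT4G29020 (5.88), AT1G56300 (5.85), AT5G48490 (5.82), AT5G45670 (5.03), BZIP61 (4.997), AT4G28780 (4.56) and AT4G30660 (4.53). The largest negative ones were those of AT2G27420 (-6.33), SAG29 (-6.02), AT5G39520 (-5.17), CHI (-5.04), AT4G23680 (-5.03), CML41 (-4.96), AT2G25625 (-4.88) and AT3G28270 (-4.53).

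Among metabolic and growth lists the members whose response differed numbered 7 of 7 for flavonoid genes, 6 of 6 for chlorophyll synthesis, 7 of 7 for tubulins, 3 of 3 for cuticle and lipid transfer genes, 3 of 3 for glucosinolates, 3 of 3 for starch, 3 of 4 for cell division, 5 of 6 for histones, 20 of 44 for wall loosening and 21 of 38 for wall polysaccharides. They numbered 6 of 16 for SWEET transporters, 3 of 8 for nuclear photosystem genes, 11 of 69 for plastid-encoded genes, 2 of 6 for sulfur assimilation, 6 of 12 for the nitrate transporter family and 2 of 3 for the stomatal lineage.

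Among turnover, redox and signalling lists the numbers were 7 of 16 for autophagy, 14 of 22 for ubiquitin conjugation, 1 of 5 for senescence, 1 of 3 for energy starvation, 7 of 10 for thiol redox, 4 of 14 for glutathione transferases, 4 of 6 for the abscisic acid and osmotic list, 2 of 6 for CHX exchangers, 2 of 4 for jasmonate and defensins, 2 of 7 for WRKY factors, 4 of 7 for bHLH factors, 3 of 3 for clock and light genes, 3 of 12 for auxin, 1 of 3 for gibberellin receptors and 1 of 4 for the unfolded protein response. For the enzyme families they were 25 of 51 UDP-glycosyltransferases, 10 of 22 cytochromes P450 and 5 of 8 calmodulin-like genes. The share of all probe sets that differed was 37.7%.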

How the results depend on the processing

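The count of changed probe sets in des1, 8443, was 7797 without dim probe sets and 10199 with array weights. Limited to the 13513 1-gene probe sets it was 4442 (2127 up, 2315 down), and for the difference of responses 4472 (2257 higher, 2215 lower). Leaving out each des1 array in turn gave 7432 to 8171 calls in des1 (3493 to 3887 up, 3901 to 4284 down). For the difference, leaving out each array of either genotype gave 7937 to 8571 (3898 to 4239 higher, 4003 to 4345 lower). With the replicate number as a block 8235 probe sets passed in des1 and 8401 for the difference. Deviations of same-numbered arrays correlated from -0.215 to 0.162, so the numbers were not taken as a pairing. Of 176 named genes that passed, 12 lost the call under at least 1 setting and 14 of the others gained one, and 0 changed direction. The cause was not tested. The 5240 probe sets below the lower quartile in both des1 groups limit what dim genes can show.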
